A study of Mus musculus with 12 samples.

Results

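The genes described here are 7 matrix metalloproteinases (Mmp2, Mmp8, Mmp9, Mmp12, Mmp13, Mmp14 and Mmp19) and 3 of their tissue inhibitors (Timp1, Timp2 and Timp3). They were found on the array as the probe sets annotated to exactly 1 of these symbols, which gave 22 of 20380 single-gene probe sets and 10 of 12393 genes. Total RNA was measured on 12 mouse expression arrays in 4 groups of 3. The Estradiol group was RAW264.7 cells cultured overnight with estradiol at 1 ug/mL, and the Unstimulated group was the same line without it (given vehicle according to the design text, which does not name it). The Pregnant and Control groups were bronchoalveolar lavage cells, labelled as macrophages, of pregnant and of control mice. RAW264.7 is a macrophage-like line from a male mouse, transformed with Abelson leukaemia virus, and all 6 of its arrays come from that 1 line. Bronchoalveolar lavage rinses free cells, mostly alveolar macrophages, from the airspaces. The sample labels attach the estradiol treatment to the lavage samples as well, whereas the design text says that lavage cells were taken directly for RNA, so groups follow the group label alone. Stage of pregnancy, strain, age, sex of the control mice, sorting and pooling are not stated in the labels. Nor do they say whether the 3 arrays of a group came from separate cultures or animals, so the p-values rest on the spread of these arrays alone, part of which can be technical.

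Matrix metalloproteinases are zinc-dependent endopeptidases, most of them secreted as inactive proenzymes, that cut collagens, elastin, basement membrane and many signalling proteins. The tissue inhibitors bind the active site of the enzymes, and some of them also bind proenzymes. Macrophages of the lung make several of these enzymes, of which Mmp12, the macrophage elastase, is the best known through its part in smoke-induced emphysema in mice.

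Median linear intensity lay between 369 and 393 on the 12 arrays. Levels below are log2(intensity + 1) of the brightest probe set of a gene and cannot be compared between genes, because each probe set has its own brightness. No detection calls were used, so a gene is called dim in a source when it exceeded its array's 40th percentile (6.98 to 7.14 on the log2 scale) on fewer than 3 of that source's 6 arrays. Of the 10 genes, 6 were dim in RAW264.7 cells (all but Mmp9, Mmp12, Mmp19 and Timp2) and 6 in lavage cells (all but Mmp8, Mmp12, Mmp19 and Timp2). The lavage label was borne out by its markers, since 8 of 8 general macrophage genes and 9 of 9 alveolar macrophage genes exceeded the 40th percentile on all 6 lavage arrays, and RAW264.7 cells did so for 7 of 8 and 3 of 9. One array of each source stood apart in a sign of RNA quality, the excess of 3' over 5' signal of the Tfrc control probe sets. Estradiol array 2 had 4.31 log2, and the 5 further arrays of the cell line had 3.16 to 3.43. Pregnant array 2 had 3.86 log2, and the 5 further lavage arrays had 2.83 to 3.47. Control array 1 stood apart in neutrophil genes, with a summed linear intensity of 21731 over 10 markers, against 6265 to 12001 on the other lavage arrays.

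**Figure D1:**
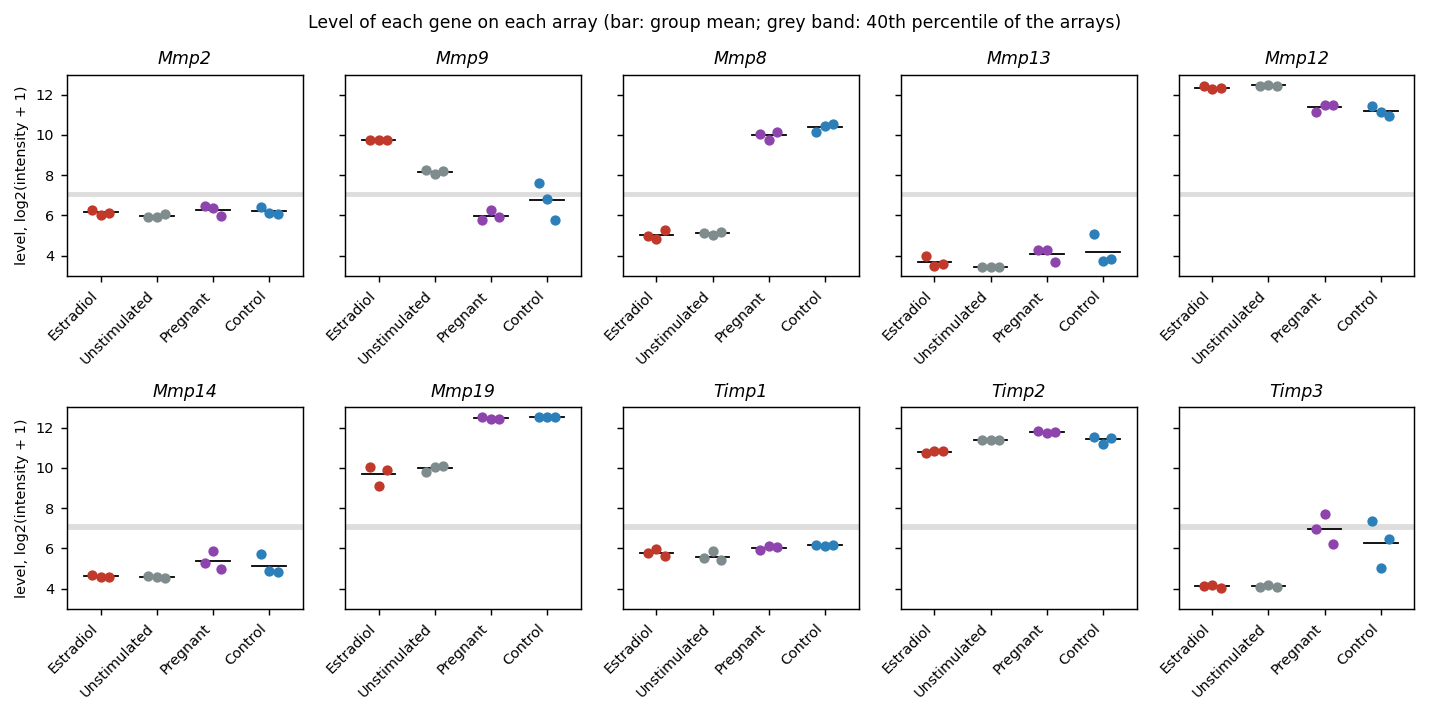
Level of each of the 10 genes on each array (vertical axis, log2(intensity + 1)), by group, with the group mean as a bar and the range of the arrays' 40th percentiles as a grey band. The 3 Estradiol points of Mmp9 sit near 9.8 and above all other Mmp9 points, and all lavage points of Mmp8 and Timp3 lie above those of the cell line.

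Estradiol was compared with no stimulation to ask how the hormone acts on the cell line. Mmp9, the gelatinase that macrophages release, rose 3.0-fold, and Timp2, an inhibitor that in complex with Mmp14 also helps to activate pro-Mmp2, fell 1.51-fold. The other 8 genes did not pass the test. Of the 10 genes, 1 was thus called higher and 1 lower, against 6.75% of all 12393 genes called higher and 4.66% called lower (11.4% in either direction). Values of the groups did not overlap for 4 of the 10 genes (Mmp9, Mmp12, Mmp13 and Timp2), a share close to the 34.8% of all genes. The median log2 change over the 10 genes was 0.02, as it was over all genes.

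Among the gelatinases, Mmp9 had levels of 9.75, 9.74 and 9.77 on the 3 Estradiol arrays, against 8.24, 8.08 and 8.20 on the 3 Unstimulated arrays. Every Estradiol array lay above every Unstimulated array, and the groups were far apart for their spread (9.76 ± 0.015 in Estradiol and 8.17 ± 0.083 in Unstimulated, SD, n = 3 each). The log2 change was 1.58 ± 0.06 (SE, 95% interval 1.45 to 1.72, limma adjusted p = 3.9e-05), rank 21 among the rises of all genes. A second probe set of Mmp9 gave 9.14, 9.41 and 9.21 in Estradiol and 7.89, 7.81 and 7.89 in Unstimulated cells, a log2 change of 1.39. It too was called, so both probe sets of the gene showed the rise. Mmp2, the gelatinase made mainly by stromal cells, was dim, with levels of 6.28, 6.05 and 6.13 in Estradiol and 5.91, 5.93 and 6.08 in Unstimulated cells. Its groups overlapped narrowly, and the interval of its log2 change ran from -0.01 to 0.37 (limma adjusted p = 0.20).

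The collagenases were dim in this line. Mmp8, called neutrophil collagenase after its best known source, had levels of 4.96, 4.82 and 5.28 in Estradiol and 5.15, 5.05 and 5.20 in Unstimulated cells, with overlapping groups and an interval of -0.39 to 0.17. Mmp13, the main interstitial collagenase of mouse bone and cartilage, had 3.99, 3.49 and 3.6 in Estradiol and 3.46, 3.43 and 3.44 in Unstimulated cells. Although its groups did not overlap, the 3 Estradiol arrays were spread and the interval was -0.04 to 0.54 (limma adjusted p = 0.25).

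Mmp12, the macrophage elastase, was bright on every array. Its levels were 12.42, 12.29 and 12.34 in Estradiol and 12.44, 12.49 and 12.46 in Unstimulated cells. All 3 Estradiol arrays were slightly lower, by 0.11 on the log2 scale (interval -0.24 to 0.02, limma adjusted p = 0.25), which did not pass the test. Mmp14, a membrane-anchored enzyme that activates pro-Mmp2, was dim and ranged from 4.57 to 4.68 in Estradiol and from 4.53 to 4.62 in Unstimulated cells.

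Mmp19, which cuts basement membrane proteins and is made by macrophages among other cells, gave a different answer with each of its 2 probe sets. The brighter one had levels of 10.04, 9.11 and 9.89 in Estradiol and 9.80, 10.05 and 10.07 in Unstimulated cells. Only Estradiol array 2, the array with the high 3' to 5' signal, was low, and the log2 change of -0.30 (interval -0.85 to 0.25, limma adjusted p = 0.46) became -0.01 without it. The dimmer probe set had 5.20, 5.12 and 5.44 in Estradiol and 5.95, 6.02 and 6.01 in Unstimulated cells, so all 3 Estradiol arrays were lower. Its log2 change was -0.74 ± 0.09 (SE, n = 3 each, limma adjusted p = 0.0041 over all probe sets), but its levels lay below the 40th percentile.

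Of the inhibitors, Timp2 had levels of 10.75, 10.81 and 10.83 in Estradiol, against 11.39, 11.38 and 11.40 in Unstimulated cells. The arrays within each group lay close together and the groups did not overlap. The log2 change was -0.59 ± 0.05 (SE, 95% interval -0.70 to -0.48, limma adjusted p = 0.00057). All 6 probe sets of Timp2 gave a negative log2 change, between -0.77 and -0.56, and 5 of them were called, while the sixth had a limma adjusted p of 0.055. Timp1, an inducible inhibitor that binds pro-Mmp9, was dim, with 5.79, 5.94 and 5.62 in Estradiol and 5.51, 5.86 and 5.4 in Unstimulated cells. Those groups overlapped (interval -0.13 to 0.51). Timp3, which binds to the matrix and also inhibits Adam17, was dim too and lay between 4.05 and 4.19 on all 6 arrays (interval of the log2 change -0.14 to 0.15).

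**Figure D2:**
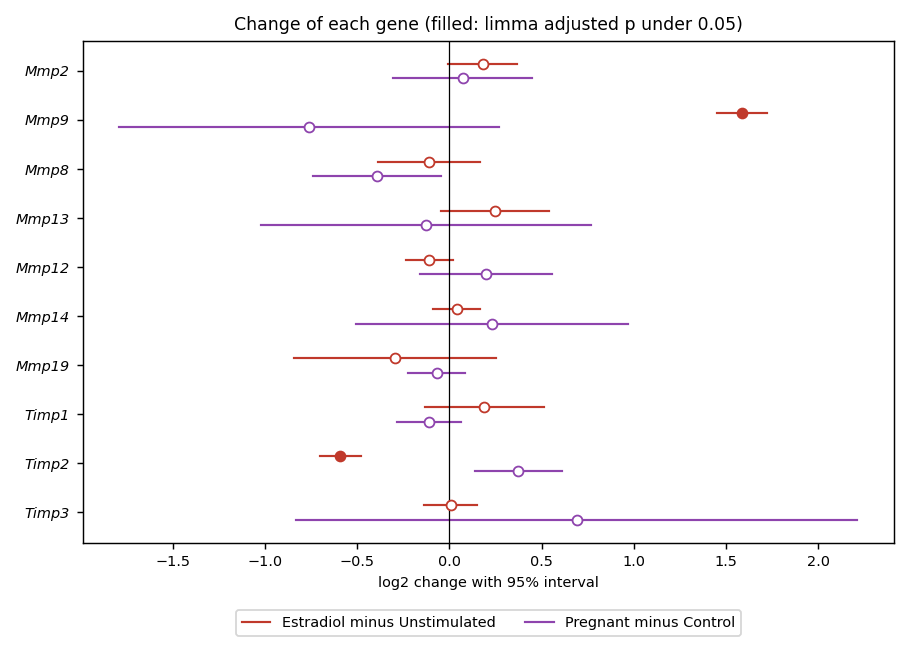
Log2 change of each gene (horizontal axis) with its 95% interval, for Estradiol minus Unstimulated and for Pregnant minus Control, n = 3 arrays a group; filled points passed a limma adjusted p under 0.05. Only Mmp9 (1.58) and Timp2 (-0.59) in the estradiol comparison are filled, and the widest pregnancy intervals are those of Timp3, Mmp9 and Mmp13.

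Lavage cells of pregnant and control mice were compared to ask what pregnancy does to airspace macrophages in the animal. None of the 10 genes passed the test, and neither did any of the 12393 genes in the limma fit (0%), although 1163 genes had an unadjusted p under 0.05, Timp2 and Mmp8 among them. Since lavage is a mixture, fewer cells of a type and less RNA per cell cannot be told apart in these values.

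Timp2 had levels of 11.82, 11.75 and 11.79 in Pregnant, against 11.54, 11.21 and 11.48 in Control lavage. It was the only 1 of the 10 genes whose groups did not overlap, against 15.7% of all genes. The log2 difference was 0.37 ± 0.10 (SE, n = 3 each, interval 0.14 to 0.61, limma unadjusted p = 0.0073 and adjusted p = 0.44), and all 6 probe sets gave a positive value, from 0.11 to 0.42. Mmp8 had 10.04, 9.75 and 10.15 in Pregnant and 10.13, 10.44 and 10.55 in Control lavage. Its groups overlapped only at the top of one and the bottom of the other, and its log2 difference was -0.39 ± 0.14 (SE, n = 3 each, interval -0.74 to -0.05, limma unadjusted p = 0.032 and adjusted p = 0.49).

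Mmp9 in lavage cells was low and varied most within the Control group. Its levels were 5.79, 6.26 and 5.92 in Pregnant and 7.62, 6.83 and 5.79 in Control lavage. Control array 1 was the highest, and it alone exceeded the 40th percentile. The log2 difference was -0.76 ± 0.43 (SE, n = 3 each, interval -1.79 to 0.27, limma adjusted p = 0.62) and was -0.32 without that array and -1.24 without Control array 3. The second probe set of Mmp9 gave -0.30 (limma adjusted p = 0.76 over all probe sets). Neutrophils carry Mmp9 in their granules, and the sum of 10 neutrophil markers was 8818, 12001 and 6689 in Pregnant and 21731, 6824 and 6265 in Control lavage. Control array 1 was thus highest in both, while Control array 2 ranked 2 of 6 for Mmp9 and 4 of 6 for the markers. Of the 10 markers, 5 (S100a8, S100a9, Csf3r, Lcn2 and Ltf) exceeded the 40th percentile on all 6 lavage arrays and 4 (Camp, Elane, Mpo and Ngp) on none. The markers' part in the Mmp9 values was not tested.

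Timp3 was the other gene that varied strongly between lavage arrays. Its levels were 6.98, 7.70 and 6.20 in Pregnant and 7.36, 5.0 and 6.44 in Control lavage, so the groups overlapped widely (log2 difference 0.69 ± 0.64, SE, n = 3 each, interval -0.83 to 2.21). Without Control array 2 the difference was 0.06, and without Control array 1 it was 1.24. Summed intensity of 10 lung epithelium markers was 35972, 40388 and 31146 in Pregnant and 36159, 26755 and 31228 in Control lavage. Bright genes weigh most in a linear sum, and by group mean Krt19 and Scgb1a1 were the brightest of the 10. Krt19 had 13.72 to 13.90 log2 in Pregnant and 13.62 to 13.66 in Control lavage. Scgb1a1 had 12.48 to 13.27 log2 in Pregnant and 12.56 to 13.42 in Control lavage. The 6 arrays stood in the same order by Timp3 and by that sum, which was noticed among 8 marker lists after the values were seen, and its part in the Timp3 values was not tested. Of those 10 epithelial genes, 7 exceeded the 40th percentile on all 6 lavage arrays and Foxj1, of ciliated cells, on none. The fibroblast markers Col1a1, Col1a2, Col3a1, Dcn, Lum and Pdgfrb were below it on all 6. The 2 others were Pdgfra, at 7.06 to 7.32 in Pregnant and 6.64 to 6.67 in Control lavage, and Thy1, which T cells also express, at 5.49 to 5.94 in Pregnant and 6.05 to 7.33 in Control lavage. The sums of the 8 fibroblast markers were 430 to 471 in Pregnant and 409 to 506 in Control lavage.

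**Figure D3:**
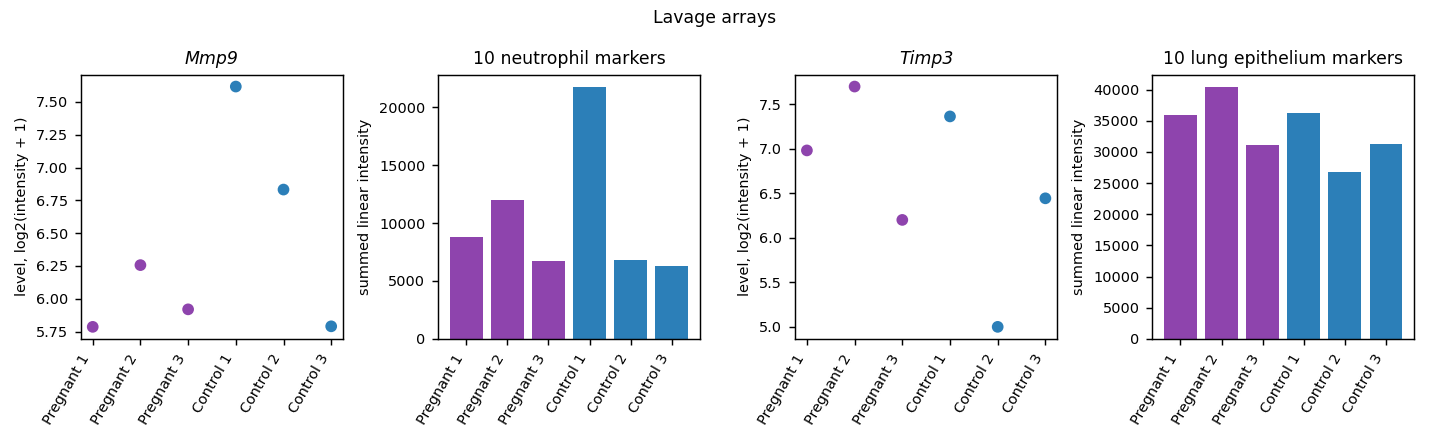
Levels of Mmp9 and Timp3 (log2(intensity + 1)) on each lavage array, each beside the summed linear intensity of 10 neutrophil and of 10 lung epithelium markers. Control 1 is highest for Mmp9 (7.62) and for the neutrophil sum (21731), and Pregnant 2 is highest for Timp3 (7.70) and for the epithelium sum (40388).

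The remaining genes differed little between the lavage groups for their spread. Mmp12 had 11.15, 11.51 and 11.48 in Pregnant and 11.43, 11.16 and 10.95 in Control lavage, with overlapping groups and an interval of the log2 difference from -0.16 to 0.56. Mmp19 was nearly level, at 12.41 to 12.55 in Pregnant and 12.51 to 12.55 in Control lavage. Timp1 lay at 5.92 to 6.13 in Pregnant and 6.12 to 6.17 in Control lavage. Mmp2, Mmp13 and Mmp14 were dim and overlapped, and the last of these was highest on Pregnant array 2 (5.88) and Control array 1 (5.70), while Mmp13 was highest on Control array 1 (5.07).

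The estradiol and pregnancy changes share no array, and the difference between them was tested in 1 fit over all 12. On the brightest probe sets, 2 of the 10 genes differed (Timp2 higher and Mmp9 lower for pregnancy), against 4.43% of all genes (2.21% higher and 2.22% lower). The dimmer probe set of Mmp19 also differed (0.73 log2, limma adjusted p = 0.012 over all probe sets). Timp2 was lower with estradiol and had a positive value in pregnancy, a difference of 0.97 ± 0.11 on the log2 scale (SE, interval 0.72 to 1.21, limma adjusted p = 0.00085), and the call held whichever array was left out. The 6 probe sets of Timp2 gave 0.78 to 1.14, and 4 of them were called. For Mmp9 the difference was -2.34 ± 0.48 (SE, interval -3.40 to -1.29, limma adjusted p = 0.022). Its second probe set gave a smaller difference of -1.69 (limma adjusted p = 0.025 over all probe sets). The fit over all 12 arrays gives the 4 groups 1 spread per gene. The SD of Mmp9 was 0.015 in Estradiol, 0.083 in Unstimulated, 0.24 in Pregnant and 0.92 in Control samples. For Timp2 it ran from 0.010 in Unstimulated to 0.18 in Control samples. The p-values and intervals of both genes, which assume an equal spread, are therefore not exact. The call of Mmp9 ended, at limma adjusted p between 0.052 and 0.063, when any Unstimulated array or Estradiol array 1 or 3 was left out, though the difference itself then stayed between -2.38 and -2.30. Estradiol given to a dish and pregnancy in an animal differ in cells, dose, time and all other hormones, so these values compare changes of unlike exposures.

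**Figure D4:**
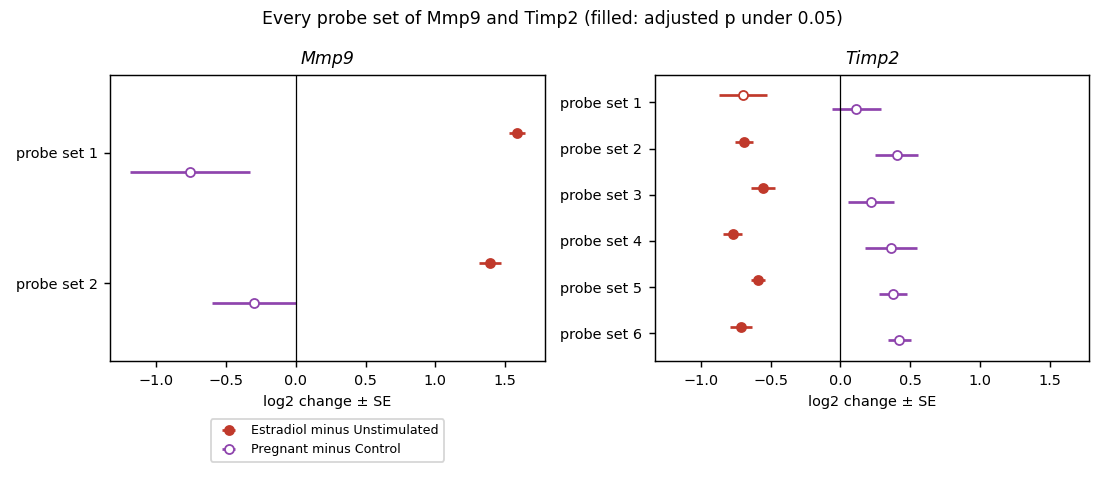
Log2 change ± SE (horizontal axis) of each probe set of Mmp9 and of Timp2, for Estradiol minus Unstimulated and Pregnant minus Control, with n = 3 arrays a group and filled points where the adjusted p over all probe sets was under 0.05. All 6 Timp2 probe sets lie left of 0 for estradiol (-0.77 to -0.56) and right of 0 for pregnancy (0.11 to 0.42).

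Lavage cells of control mice were also set against unstimulated RAW264.7 cells, to give each gene's level in the 2 sources without estradiol treatment or pregnancy. This comparison shares its Unstimulated arrays with the estradiol comparison and its Control arrays with the pregnancy one. Between the sources, 6 of the 10 genes were called, 4 higher and 2 lower in lavage cells, against 61.9% of all genes (27.9% higher and 34.0% lower), so the share is near the background. The values did not overlap for 8 of the 10 genes, against 69.9% of all genes. Source, culture, sex and handling cannot be told apart here.

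Mmp8 showed the widest span of the 10 genes, 5.35 log2 over the 4 group means. At 10.13, 10.44 and 10.55 in Control lavage, against 5.15, 5.05 and 5.20 in Unstimulated RAW264.7 cells, it was higher by 5.24 ± 0.11 log2 (SE, n = 3 each, limma adjusted p = 1.6e-07). That is 37.8-fold on this scale, with the cell line in the dim range. In Pregnant lavage Mmp8 was 10.04, 9.75 and 10.15. The neutrophil sums were 8818, 12001 and 6689 in Pregnant and 21731, 6824 and 6265 in Control lavage, in the same array order. Control array 3 was thus highest for Mmp8 and lowest for the sum. Pregnant array 2 was lowest for Mmp8 and had the largest sum of its group. The part of the neutrophil markers in the Mmp8 values was not tested.

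Mmp19 had 12.51, 12.52 and 12.55 in Control lavage, against 9.80, 10.05 and 10.07 in Unstimulated cells, 5.87-fold higher (limma adjusted p = 7.6e-07), and its second probe set was also called higher. Timp3 was 4.45-fold higher in Control lavage (limma adjusted p = 0.014), where its 3 arrays were 7.36, 5.0 and 6.44, against 4.09, 4.19 and 4.06 in Unstimulated cells. Timp3 was dim in both sources, so that fold is not exact. Without Control array 2 the log2 difference of 2.15 became 2.79. Averaging its 4 probe sets, of which 2 were called, gave 1.17. Timp1 was higher by 0.55 ± 0.12 log2 (SE, n = 3 each, limma adjusted p = 0.0067), from dim values in both sources.

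Mmp12 had 11.43, 11.16 and 10.95 in Control lavage, against 12.44, 12.49 and 12.46 in Unstimulated cells. Bright in both sources, it was 2.43-fold lower in the lavage cells (limma adjusted p = 0.00011). Mmp9 was 2.69-fold lower in Control lavage (limma adjusted p = 0.025), with no overlap between the groups. Leaving out any Unstimulated array or Control array 2 ended that call, at limma adjusted p between 0.058 and 0.071.

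Timp2 differed by 0.02 log2 between the sources (interval -0.20 to 0.24), but its probe sets disagreed, with values from -0.48 to 0.03 and 2 of 6 called lower in lavage cells. Mmp2 was not called (limma adjusted p = 0.11), and neither were Mmp13 (0.76 log2, limma adjusted p = 0.098) nor Mmp14 (0.57 log2, limma adjusted p = 0.071). Both of the last were highest on Control array 1 in that group. Without it their log2 differences were 0.33 and 0.29, yet the smaller spread brought both past the test, at limma adjusted p = 0.0023 for Mmp13 and 0.0051 for Mmp14.

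Ordered by group mean, Mmp9 was highest in Estradiol, then in Unstimulated, Control and Pregnant samples, and the Control and Pregnant groups overlapped. Timp2, on its brightest probe set, ran from Pregnant through Control and Unstimulated to Estradiol, with overlap between Control and Unstimulated samples. On 3 of its 6 probe sets the Unstimulated mean was the highest, and on 4 of 6 it was above the Control mean. For the brightest probe sets of Mmp8, Mmp14, Mmp19 and Timp3 the 2 lavage groups were above both RAW264.7 groups with no overlap between sources. Mmp14 and Timp3 were dim in both sources. The dimmer probe set of Mmp14 and the dimmest of Timp3 did overlap between sources. Their log2 differences, Control lavage minus Unstimulated, were 0.12 and 0.011 (limma adjusted p = 0.44 and 0.88 over all probe sets). For Mmp9 and Mmp12 the lavage groups were below both RAW264.7 groups, again with no overlap. Spans of the group means were 3.77 log2 for Mmp9, 2.85 for Mmp19, 2.84 for Timp3, 1.28 for Mmp12 and 0.99 for Timp2, and at most 0.80 for Mmp14, Mmp13, Timp1 and Mmp2.

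Genes that act around the metalloproteinases were followed in 6 lists, whose counts with estradiol stand against 11.4% of all genes called (6.75% higher and 4.66% lower). Of 12 further measured family members, 1 rose (8.33% called) and the median log2 change was 0.08, against 0.02 over all genes. That gene was Mmp10, stromelysin 2, at 5.95 to 6.18 in Estradiol and 5.21 to 5.30 in Unstimulated cells (0.80 ± 0.07 log2, SE, n = 3 each, limma adjusted p = 0.00079), in the dim range. Among 12 ADAM and ADAMTS proteases, 2 rose and none fell (16.7% called, against 11.4% of all genes, median 0.10). They were Adam8, a leukocyte sheddase, at 12.95 to 13.18 in Estradiol and 12.33 to 12.43 in Unstimulated cells, and Adam17, which releases TNF from the cell surface, by 0.27 log2.

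The plasminogen system, whose product plasmin can activate several pro-metalloproteinases, had 1 riser and 1 faller among 10 genes (20% called, against 11.4% of all genes, median -0.02). Plaur, the urokinase receptor, rose by 0.79 log2 (10.62 to 10.83 in Estradiol and 9.86 to 9.98 in Unstimulated cells), while Plgrkt, a plasminogen receptor, fell by 0.31 log2. Of 16 genes for activation, inhibition and docking of the enzymes, 2 rose (12.5% called, close to the 11.4% of all genes, median 0.05). Lcn2, whose human protein forms a complex with MMP9, had 6.47 to 6.74 in Estradiol and 4.25 to 4.85 in Unstimulated cells, a rise of 2.08 ± 0.15 log2 (SE, n = 3 each, limma adjusted p = 0.00044) within the dim range. Lcn2 is also one of the 10 neutrophil markers, whose sum was 832 to 856 in Estradiol and 505 to 564 in Unstimulated cells, with 8 of the 10 below the 40th percentile on all 6 arrays. S100a8, a brighter marker in that sum, had 8.24 to 8.35 in Estradiol and 6.29 to 6.87 in Unstimulated cells. The other riser was Itgav, an integrin chain that docks Mmp2, at 0.35 log2.

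Among 17 matrix substrates, 1 rose and 1 fell (11.8% called, close to the 11.4% of all genes, median 0.02). Fbln5, an elastic fibre protein, fell by 1.38 log2 (5.88 to 6.5 in Estradiol and 7.50 to 7.62 in Unstimulated cells), and Lamc1, a laminin chain, rose by 0.83 log2. Of 17 AP-1, ETS and partner transcription factors, 5 rose and 1 fell (35.3% called, against 11.4% of all genes, median 0.12). Fosl1, an AP-1 subunit, rose by 1.51 ± 0.05 log2 (9.16 to 9.26 in Estradiol and 7.69 to 7.71 in Unstimulated cells, limma adjusted p = 3.6e-05). Ets2 and Jun each rose by 0.43 log2, and Tfeb, a factor for lysosomal genes, fell by 0.54 log2. Without Estradiol array 2 the AP-1 and ETS list had 4 risers and 2 fallers, the substrates 1 and 2, and the further family members 1 and 1. The 11.4% of all genes does not apply to those counts, since 637 to 1730 genes were called with each array left out.

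**Figure D5:**
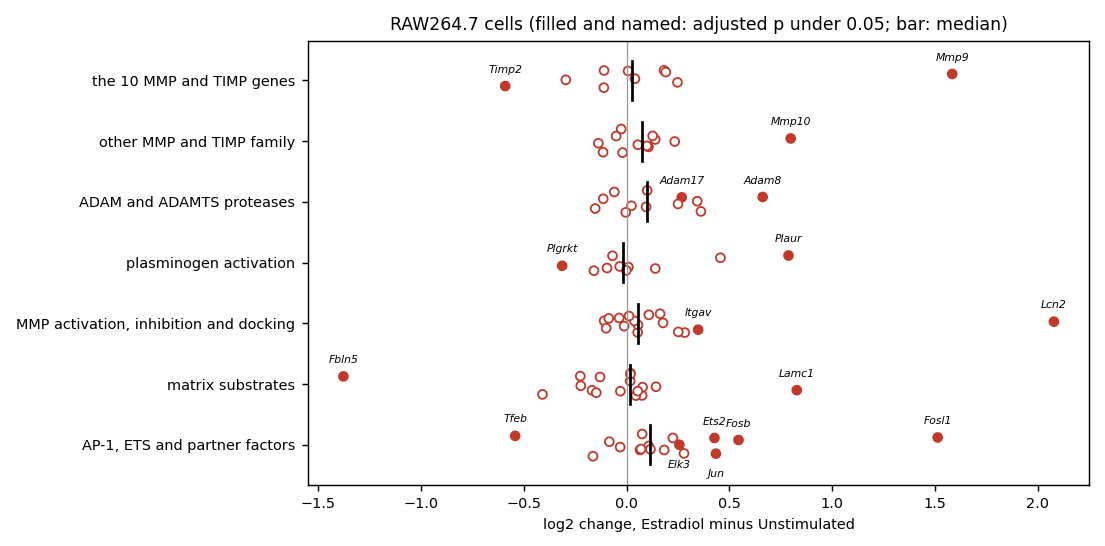
Log2 change, Estradiol minus Unstimulated (horizontal axis), of the 10 genes and of the measured genes of the 6 surrounding lists, 1 row a list. Each point is a gene (n = 3 arrays a group), the bar is the list's median, and filled, named points had a limma adjusted p under 0.05; every median lies between -0.02 and 0.12.

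In pregnancy no gene of the 6 lists passed the limma test (0 of 84). An unadjusted p under 0.05 was found for 5 of the 84, against 1163 of all 12393 genes. Among the largest differences were those of Fn1, fibronectin, at 10.61 to 11.10 in Pregnant and 11.53 to 11.90 in Control lavage (-0.94 ± 0.15 log2, SE, n = 3 each, limma adjusted p = 0.40), of Ets1 (-1.27 ± 0.74) and of Adam19 (-0.81 ± 0.35). Fosl1 went the other way, at 4.55 to 5.99 in Pregnant and 4.32 to 4.61 in Control lavage, in the dim range. Of 8 T cell markers, none was called in the limma fit, 6 had a negative log2 difference and 2 had an unadjusted p under 0.05 (median log2 difference -0.95). Over all 12393 genes, 4898 had a negative difference and 1163 such a p (median 0.03). Summed intensity of the 8 T cell markers was 10734 to 12124 in Pregnant and 11537 to 11974 in Control lavage. Cd2 made up most of that sum, at 13.305 to 13.515 log2 in Pregnant and 13.35 to 13.427 in Control lavage. Only Cd2 exceeded the 40th percentile on all 6 arrays, and Cd247, Cd4 and Cd8a were below it on all 6. Cd3d, Cd3e and Cd3g had means of 6.68, 6.53 and 5.88 in Pregnant and 7.50, 7.61 and 7.26 in Control lavage. The part of the T cell markers in the Ets1 and Adam19 values was not tested. Leaving out Control array 1 or Pregnant array 2 gave no call in any list. Between the sources, 4 of 12 further family members, 9 of 12 ADAM and ADAMTS proteases, 4 of 10 plasminogen genes, 9 of 16 activation and docking genes, 9 of 17 substrates and 15 of 17 transcription factors were called, against 61.9% of all genes. Fn1 was 6.48 log2 and Plaur 2.48 log2 higher in Control lavage, whereas the log2 differences of Adam8 (-4.42), Adamts1 (-3.5), Fosl1 (-3.25) and Plau, urokinase (-2.41), were negative, with lower levels in Control lavage. Fn1 in Unstimulated cells and Adamts1 and Fosl1 in Control lavage lay below the 40th percentile, so the sizes of those differences are not exact.

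The genes whose pattern over all 12 arrays was most like that of the 3 widest-ranging genes were sought among 2816 genes with a span of at least 1 log2. For Mmp8 these were Plcb2, Cdh1 and Krt80 (Pearson r = 0.998 each), for Mmp9 Traf1 (0.986), Hebp2 (0.979) and Rcsd1 (0.975), and for Mmp19 Fcgr4, Fzd7 and Bst1 (0.996 each). The 12 points share 2 sources and 4 groups, so these values describe group differences and carry no test. Over the 6 RAW264.7 arrays, among 515 genes with a span of at least 0.5 log2, Mmp9 was most like Ltb, Marcksl1 and Sh3bp5l (0.999 each) and Timp2 most like Mvd (0.999), Itpr2 (0.999) and Cd24a (0.998). Cdh1 is also one of the 10 epithelial markers above.

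Mmp13, Mmp12 and Mmp8 lie in 1 run of 10 metalloproteinase genes on chromosome 9, in the RefSeq order Mmp13, Mmp12, Mmp1b, Mmp3, Mmp1a, Mmp10, Mmp8, Mmp27, Mmp20 and Mmp7 with no other protein-coding gene between them (GRCm38.p6). Members of that run took opposite directions between the sources: Mmp8 was higher in lavage cells and Mmp12 lower. Promoter windows of 250 bases before to 50 bases after the RefSeq start (GRCm38.p6) were matched for 7 of the 10 genes in 8 windows, 2 of them for Mmp12; Mmp2, Mmp9 and Mmp19 were not matched. The 3 shown are those of the called inhibitor Timp2 and of the 2 neighbours with opposite source differences, 5′ to 3′ on the gene's strand, with motif matches in capitals.
Mmp8, chr9:7558179-7558478, plus strand: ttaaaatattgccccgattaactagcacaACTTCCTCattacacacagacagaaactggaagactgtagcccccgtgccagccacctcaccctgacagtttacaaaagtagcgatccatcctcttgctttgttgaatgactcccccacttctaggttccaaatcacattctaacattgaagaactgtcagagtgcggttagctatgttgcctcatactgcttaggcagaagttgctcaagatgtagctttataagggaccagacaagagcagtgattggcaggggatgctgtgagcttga
Mmp12, first window, chr9:7344147-7344446, plus strand: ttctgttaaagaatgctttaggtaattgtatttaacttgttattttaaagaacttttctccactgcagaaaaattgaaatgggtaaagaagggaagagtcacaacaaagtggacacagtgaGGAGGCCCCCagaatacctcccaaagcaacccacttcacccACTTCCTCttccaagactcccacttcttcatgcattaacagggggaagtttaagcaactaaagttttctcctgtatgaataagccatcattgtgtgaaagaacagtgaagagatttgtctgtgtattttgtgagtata
Timp2, chr11:118355362-118355661, minus strand: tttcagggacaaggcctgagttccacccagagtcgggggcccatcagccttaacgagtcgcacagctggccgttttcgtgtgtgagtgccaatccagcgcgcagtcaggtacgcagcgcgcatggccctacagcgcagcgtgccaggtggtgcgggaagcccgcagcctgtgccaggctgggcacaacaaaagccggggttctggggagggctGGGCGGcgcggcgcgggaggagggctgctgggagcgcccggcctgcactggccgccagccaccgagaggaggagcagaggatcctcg
The capitals mark a PU.1 match in Mmp8, an NF-kB match followed by a PU.1 match in Mmp12, and an Sp1 match in Timp2.

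The motifs were searched on both strands as TGANTCA (AP-1), GGG and TCC with any 4 bases between them (NF-kB), GGTCA and TGACC with any 3 bases between them (estrogen response element), GGGCGG (Sp1) and GAGGAAGT (PU.1, a factor of macrophages and neutrophils). Of all 32851 promoter windows, 7.81%, 19.2%, 0.07%, 35.7% and 3.2% held them, in the same order. PU.1 matches were found in the windows of Mmp8 and Mmp12, 221 and 88 bases before the start, and in none of the other 6 windows. AP-1 matches were found in Mmp13 and in the second window of Mmp12. No window of the 7 genes held the estrogen response element letters. Timp2 had a window of 68.7% G and C with 25 CpG pairs, Mmp8 one of 46% with 4, and the first Mmp12 window one of 38.7% with 0, against medians of 52.7% and 7 over all promoters. A match describes letters in the sequence, not binding.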

How the data were processed

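Total RNA of 12 mouse samples was measured on Affymetrix expression arrays. The authors deposited 1 linear intensity per probe set and array, made with RMA per the submitters' processing notes, with no version stated; RNA was column-purified with DNase and biotin-labelled per the labels' protocols. The genome build is not given in the sources used here.

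Of 22690 probe sets, 20380 named 1 gene, 691 several and 1555 none by the platform annotation, and 64 were controls. Values were taken as log2(value + 1), so changes of dim genes are slightly understated, and the brightest probe set of a gene over 12 arrays was kept. The 3 pairwise comparisons were each fitted on their 6 arrays and the difference of changes on all 12, with limma 3.58.1 (lmFit, eBayes) under R 4.3.3, two-sided, with Benjamini-Hochberg adjustment over 12393 genes and calls at an adjusted p under 0.05. With 3 arrays a group, their number limits the precision. The fits were tested on simulated data. No pairing was fitted, since the labels name none and replicates were numbered in deposit order. Whether arrays were paired is not known.

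All 10 genes are reported. From each surrounding list, up to 4 called genes with the smallest p are named, or up to 2 with the largest change where none was called; like-pattern genes are the 3 with the highest correlation. The genes and lists were chosen with earlier results of these data known. Alternatives were quantile or common-median scaling, a filter on dim genes, the mean of probe sets or every probe set, another prior, array weights, no pseudocount, 1 fit of 12 arrays and each array left out. Lists without Estradiol array 2, Control array 1 or Pregnant array 2 were added after seeing the data. Sequences are from RefSeq (GRCm38.p6). The software was the R package data.table (version 1.17.8), Python 3.11.15, pandas 2.3.3, numpy 2.4.6 and matplotlib 3.10.9.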

Additional observations from a re-analysis of the deposited data

Results flagged for a closer look

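For 2 genes, each on its brightest probe set, the change in pregnancy and the change with estradiol differed by the limma test of the difference itself over all 12 arrays. Mmp9 had a difference (pregnancy change minus estradiol change) of -2.34 log2, from -0.76 in pregnancy and 1.58 with estradiol. Timp2 had a difference of 0.97 log2, from 0.37 in pregnancy and -0.59 with estradiol. The pregnancy change of neither gene passed its own test. No group was large enough for a search for outlying arrays, since each had 3.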

How the results depend on the processing

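No paired analysis was possible because replicate numbers follow deposit order alone. Of the single-gene values under other settings, 593 kept their direction and side of the threshold, 21 turned sign, 5 gained and 9 lost the call. No called value turned, and all 9 losses were of Mmp9 with an array left out (4 between the sources, 5 in the difference of changes). Genes removed by the filter on dim genes gave no value and were not counted as losses. Between the sources that filter removed Timp1 and Timp3, both called in the main fit, and 4 to 7 of the 10 genes were called under the 9 other settings. With estradiol, Mmp9 and Timp2 stayed called under all 9 other settings and in all 6 fits with an array left out; array weights also called Mmp12 (limma adjusted p = 0.036). All genes called with estradiol numbered 4010 with array weights (637 to 1730 with each array left out). The estimate of array weights gave a convergence warning in 1 fit, so results with array weights are less certain. In pregnancy all genes called numbered 1 with the filter on dim genes and 18 in 1 fit of 12 arrays (0 to 2 with each array left out), and none was one of the 10 genes. Between the sources, 12704 of 20380 probe sets were called when each was tested (6793 to 7631 genes with each array left out, and 5 to 8 of the 10 genes), and 1 fit of 12 arrays called Mmp13 (limma adjusted p = 0.049). Leaving out Control array 3 called Mmp14 (limma adjusted p = 0.043). For the difference of changes, 1394 genes were called with array weights (263 to 573 with each array left out, and 1 to 2 of the 10 genes). The signs that turned were, with estradiol, Timp3 at -0.0077 with quantile scaling and -0.055 with array weights (-0.025 to 0.045 with each array left out), and Mmp8 at 0.11 with array weights. In pregnancy Mmp13 was 0.11 with array weights, and with each array left out it ran from -0.37 to 0.30 (positive without Control 1 or Pregnant 3), Mmp2 from -0.028 to 0.22 (negative without Pregnant 1) and Mmp14 from -0.022 to 0.51 (negative without Pregnant 2). Timp2 between the sources was -0.25 as the mean of its probe sets and -0.045 to 0.12 with each array left out (negative without Control 1 or 3). In the difference of changes Mmp2 was 0.00041 as the mean of probe sets and 0.038 with array weights. With each array left out it ran from -0.21 to 0.038 (positive without Control 1 or Pregnant 3), Mmp13 from -0.61 to 0.055 (positive without Control 1), Mmp19 from -0.056 to 0.41 (negative without Estradiol 2) and Mmp14 from -0.063 to 0.47 (negative without Pregnant 2). The cause of these turns was not tested. Dim signal limits Mmp2, Mmp13, Mmp14 and Timp1, which exceeded no array's 40th percentile in either source.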
